A study of Mus musculus with 6 samples.

Results

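Gene expression in the hippocampus was compared between mice on the high dose of venlafaxine and mice without drug, which takes up 4 of the 6 arrays of the series. The high dose mice received 100 mg of venlafaxine per kg body weight and day, mixed into their drinking water for 30 days, and the control mice drank water with 0 mg. A low dose group on 30 mg per kg and day fills the other 2 arrays and is used here for the spread between arrays and as values beside the comparison. All animals were male mice of the inbred strain DBA/2, housed singly, with 10 animals per dose group. The labels give no age.

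RNA was pooled by dose group and brain side, so that each array holds many brains and no value belongs to a single animal. High dose 1 was a left pool hybridized on the first of 2 dates, with an RNA integrity number (RIN) of 8.5. High dose 2 was a right pool of the later date with a RIN of 8.2. Control 1 was a right pool of the first date (RIN 8.7) and control 2 a left pool of the later date (RIN 7.9). Each date and each side thus holds 1 high dose and 1 control array, and the mean difference between the groups is balanced over both. How the difference changes between dates, however, cannot be told apart from a difference between sides, and the reverse. Left and right pools of a group may come from the same brains, so the spread between 2 arrays of a group may be technical, and p-values measure that spread alone. One male inbred strain and a whole dissected region limit what the groups stand for. With so few arrays the precision of all values below is limited.

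Venlafaxine blocks the transporters that return serotonin and noradrenaline to the nerve ending, so that both transmitters act longer on their receptors. Many of these receptors act through cyclic AMP and calcium, which switch on kinases and the factor CREB. Immediate early genes such as Fos, Egr1 and Arc answer these signals within minutes of neuronal firing, and their RNA decays quickly, which is why they are widely read as a record of recent activity.

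Levels are deposited log2 values per probe set, in which a difference of 1 is a doubling, and 11743 genes above the array median on at least 2 of the 6 arrays were tested. A gene is represented by its brightest probe set. All 11 hippocampal marker genes looked up passed that filter. So did 16 of 16 neocortex markers and 17 of 18 striatum markers on the array, so passing does not check tissue identity. Hippocampal examples are Neurod6 of pyramidal neurons, at 12.34 and 11.94 at the high dose, against 12.42 and 11.79 in control, and the CA1 marker Wfs1, at 10.82 and 10.35, against 10.90 and 10.50. Over all probe sets, the arrays of a date resembled each other most. High dose 2 and control 2 had a correlation of 0.997, whereas the high dose arrays had one of 0.995 with each other, and so did the control arrays. Fewer cells of a type and less RNA per cell cannot be told apart in such tissue.

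The promoters shown first are those of 4 genes of the activity response that lay lower at the high dose, chosen because the binding sites of CREB and of the serum response factor (SRF) near the start are textbook features of this class. RefSeq windows from GRCm38.p6 run from 250 bases before to 50 after a start, and the 250 bases before the start are printed 5′ to 3′. Capitals mark the CREB core TGACG on either strand, of which the palindrome TGACGTCA in Dusp1 holds 2 overlapping copies, and, in Egr2, the CArG box bound by SRF. Egr2 has 5 listed windows, of which the 1 with most matches is printed.
Egr2, chr10:67537619-67537868, plus strand: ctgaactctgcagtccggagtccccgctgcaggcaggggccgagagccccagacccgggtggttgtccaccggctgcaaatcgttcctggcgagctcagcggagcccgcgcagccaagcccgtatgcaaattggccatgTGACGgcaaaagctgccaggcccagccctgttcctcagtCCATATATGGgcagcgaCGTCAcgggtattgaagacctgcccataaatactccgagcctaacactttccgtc
Fos, chr12:85473640-85473889, plus strand: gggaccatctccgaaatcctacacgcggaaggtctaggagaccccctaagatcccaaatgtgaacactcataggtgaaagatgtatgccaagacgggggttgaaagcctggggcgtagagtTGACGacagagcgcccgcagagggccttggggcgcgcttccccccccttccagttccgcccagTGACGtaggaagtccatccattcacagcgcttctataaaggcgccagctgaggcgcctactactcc
Nr4a1, chr15:101266596-101266845, plus strand: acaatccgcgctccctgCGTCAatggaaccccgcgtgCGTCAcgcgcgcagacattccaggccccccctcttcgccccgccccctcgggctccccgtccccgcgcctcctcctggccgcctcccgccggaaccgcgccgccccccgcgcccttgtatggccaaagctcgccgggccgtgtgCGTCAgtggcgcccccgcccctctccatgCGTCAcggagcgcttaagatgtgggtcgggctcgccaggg
Dusp1, chr17:26508473-26508722, minus strand: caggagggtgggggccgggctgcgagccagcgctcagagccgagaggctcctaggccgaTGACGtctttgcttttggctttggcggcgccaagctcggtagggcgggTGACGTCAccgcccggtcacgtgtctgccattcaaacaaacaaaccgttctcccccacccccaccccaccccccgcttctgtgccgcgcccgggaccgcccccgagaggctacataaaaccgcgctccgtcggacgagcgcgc
The Egr2 stretch holds 2 TGACG cores and 1 CArG box, that of Fos 2 cores, that of Nr4a1 4 and that of Dusp1 3. TGACG occurred in 20.8% of 32851 windows of 300 bases in the mouse table, in any window of 35.8% of 9509 tested genes, and in 11 of the 16 immediate early genes with a window. It was also found in 14 of 22 heat shock genes and in 6 of 14 genes of the MAP kinase feedback list that holds Dusp1. The CArG box was found in 1.63% of windows, in 1.58% of tested genes and in 2 of those 16 genes. A match is a description of letters and not evidence of binding.

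Promoters of 4 further genes stand for the chaperone, unfolded protein and clock groups described later. Capitals mark the heat shock element GAANNTTCNNGAA in Hspd1, where 2 copies overlap, the endoplasmic reticulum stress element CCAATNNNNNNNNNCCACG in Hspa5 and Creld2, and the E-box CACGTG in Ciart, each searched on both strands. Hspd1 has 2 listed windows, of which the 1 with most matches is printed.
Hspd1, chr1:55087933-55088182, minus strand: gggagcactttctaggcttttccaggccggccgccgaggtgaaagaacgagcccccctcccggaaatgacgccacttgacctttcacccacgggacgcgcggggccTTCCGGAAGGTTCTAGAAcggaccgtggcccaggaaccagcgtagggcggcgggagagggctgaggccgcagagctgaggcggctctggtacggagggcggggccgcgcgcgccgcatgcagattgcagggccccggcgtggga
Hspa5, chr2:34771840-34772089, plus strand: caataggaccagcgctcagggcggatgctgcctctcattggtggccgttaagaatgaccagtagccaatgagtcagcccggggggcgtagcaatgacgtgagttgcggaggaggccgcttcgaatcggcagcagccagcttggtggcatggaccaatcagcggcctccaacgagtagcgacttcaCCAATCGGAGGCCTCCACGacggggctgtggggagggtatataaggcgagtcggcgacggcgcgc
Creld2, chr15:88819396-88819645, plus strand: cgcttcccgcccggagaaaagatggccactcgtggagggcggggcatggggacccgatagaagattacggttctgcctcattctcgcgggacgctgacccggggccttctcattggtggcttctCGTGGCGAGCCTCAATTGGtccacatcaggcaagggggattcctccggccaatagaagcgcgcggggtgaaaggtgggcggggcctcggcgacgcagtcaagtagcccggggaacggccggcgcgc
Ciart, chr3:95882229-95882478, minus strand: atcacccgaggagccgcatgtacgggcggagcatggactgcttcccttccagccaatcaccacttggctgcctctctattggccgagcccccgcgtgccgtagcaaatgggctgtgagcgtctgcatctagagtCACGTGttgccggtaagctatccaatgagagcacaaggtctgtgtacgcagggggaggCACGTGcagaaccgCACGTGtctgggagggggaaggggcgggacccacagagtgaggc
The heat shock element was found in 0.60% of windows, in 0.58% of tested genes and in 5 of 22 tested heat shock genes with a window, namely Hspd1, Hspe1, Hsph1, Chordc1 and Dnajb6. The stress element was found in 0.12% of windows, in 0.15% of tested genes and in 8 of 24 tested genes of the unfolded protein response. The E-box was found in 7.15% of windows, in 11.9% of tested genes and in 4 of 18 tested clock genes, with 3 copies in Ciart.

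Across the genome the high dose differed little from control, and the genes farthest from control lay lower. Egr2 was the only gene that passed the limma test with Benjamini-Hochberg adjustment, 1 of 11743 genes or 0.00852%. An unadjusted p under 0.05 was found for 324 genes, 289 of them lower and 35 higher. With hybridization date as a block, 44 genes passed (0.375%), 41 lower (0.349%) and 3 higher (0.0255%). In that fit limma gave all genes 1 shared estimate of the spread, so its p-values follow the size of the change. For high dose against control, leaving out 1 array gave 0 to 178 genes, with 178 without control 2, and the call for Egr2 was lost without either low dose array and with centred or quantile normalized arrays. The group mean was lower at the high dose for 64.1% of genes and higher for 35.9%. The groups did not overlap for 2196 genes that were lower (18.7%) and 943 that were higher at the high dose (8.03%). A mean difference beyond 0.3 on the log2 scale was measured for 73 lower and 10 higher genes, so 99.3% of genes stayed within 0.3 of control. The median difference over all genes was -0.03, with -0.08 for date 1 and 0.02 for date 2.

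The tilt of the many small differences depends on how the arrays are scaled, because the deposited arrays are not equal in spread. With each array centred on the median of the tested genes, the mean was lower for 41.4% of genes and higher for 58.6%, both high dose arrays lay below both controls for 11.7% of genes, and above both for 19.2%. With quantile normalization the mean was lower for 48.6% and higher for 51.4%. Small medians of lists below are therefore best read relative to all genes. The same holds for counts of lower means, since 64.1% of all genes had one. Centring left 12 of 20 immediate early genes with separate groups below control, and 8 of 17 striatum markers, 9 of 16 neocortex markers, 7 of 25 heat shock genes and 9 of 27 unfolded protein response genes. It put 9 of 11 ependyma genes, 13 of 19 meningeal genes and 9 of 21 choroid plexus genes above both controls.

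**Figure D1:**
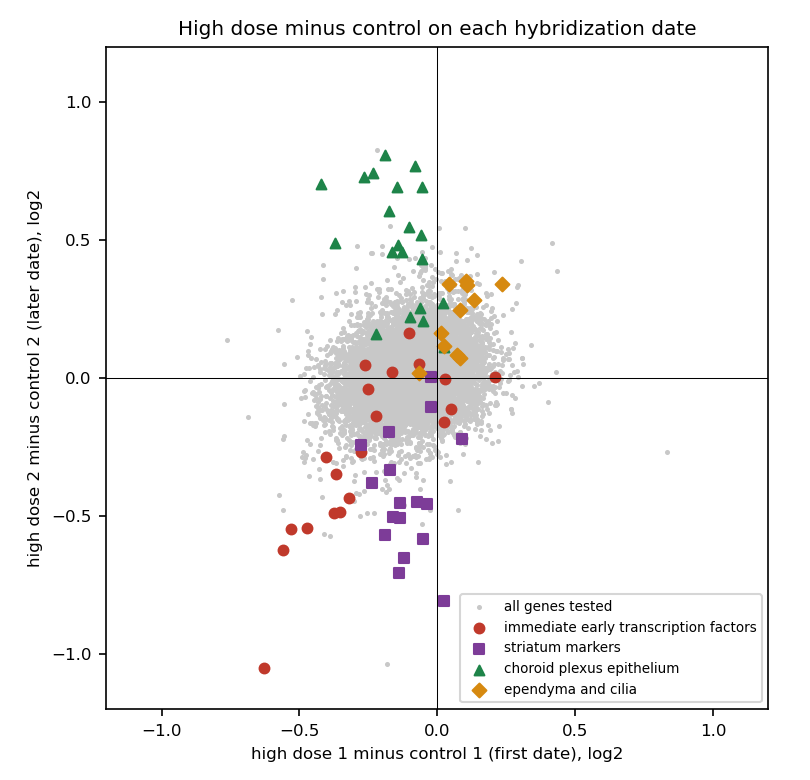
Each point is a gene, with the log2 difference of high dose 1 minus control 1 (first date) on the horizontal axis and of high dose 2 minus control 2 (later date) on the vertical axis. Immediate early genes (red circles) extend to the lower left, to -0.63 and -1.05 for Egr2, striatum markers (violet squares) lie mostly low on the later date, choroid plexus markers (green triangles) lie high on the later date and mostly below 0 on the first, and ependyma markers (orange diamonds) lie mostly above 0 on both.

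The differences on the first and the later date had a correlation of 0.21 over genes, which are not independent of each other. Those on the left and the right had -0.37. In the scatter of both dates, 3998 genes lay lower on both and 1792 higher on both.

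Transcription factors of the immediate early class mostly lay lower at the high dose. Of 20 tested members, 17 had lower means at the high dose, and 12 (60.0%, against 18.7% of all genes) had separate groups below control. Their median log2 difference was -0.23, against -0.03 over all genes, with -0.27 for date 1 and -0.21 for date 2. In Egr2 the log2 level fell by 0.84 (SE 0.12, adjusted p = 0.00226 by limma). With the date block 9 of the 20 members passed, all of them lower, where 0.349% of all genes passed as lower. This list, like all those below, was drawn up with results of these arrays known, so its direction is a description.

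Egr2, a zinc finger factor of the Egr family, read 8.01 on both high dose arrays, against 8.64 and 9.06 in control. The lower control array was still 0.63 above the high dose, the widest gap of any gene. Its other probe set showed a difference of -0.62. The low dose arrays, at 7.94 and 7.90, were also below both controls. Egr1, the member most used as an activity marker, read 12.42 and 12.62 at the high dose, against 12.95 and 13.16 in control (difference -0.54, SE 0.11, limma adjusted p = 0.205). Egr3 read 11.82 and 11.59, against 12.20 and 12.08 in control. Egr4 read 8.50 and 8.49 at the high dose, against 8.73 and 8.63. All 4 Egr genes thus had separate groups below control, against 18.7% of all genes.

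Among AP-1 proteins, dimers of Fos and Jun family members, the Fos side lay lower and the Jun side was mixed. Fos read 10.50 and 10.59 on the high dose arrays, against 11.06 and 11.21 on the control arrays (difference -0.59, SE 0.11, limma adjusted p = 0.0747). Fosb read 7.64 and 7.32, against 7.99 and 7.81 in control. Junb read 8.27 and 8.17 at the high dose, against 8.54 and 8.44. For Jun the groups overlapped, with 10.62 and 10.73 at the high dose and 10.72 and 10.57 in control, and Jund differed by -0.01. Fosl2 differed by -0.35 on its brighter probe set and by 0.09 on the other, so its probe sets disagree.

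Of the orphan nuclear receptors of the Nr4a family, 2 of 3 had separate groups below control, against 18.7% of all genes. Nr4a1 read 10.69 and 10.43 at the high dose, against 11.16 and 10.98 in control (difference -0.51, SE 0.11, limma adjusted p = 0.275). Nr4a2 read 11.68 and 11.46, against 12.05 and 11.80 in control. Nr4a3 overlapped between the groups, with 11.44 and 11.62 at the high dose and 11.70 and 11.58 in control. The neuron-specific factor Npas4, which answers calcium entry, was the exception on the other side. It read 8.81 and 8.65 at the high dose, against 8.60 and 8.65 in control, a gap of 0.0022 between the groups. Srf, which binds CArG boxes, differed by -0.15.

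**Figure D2:**
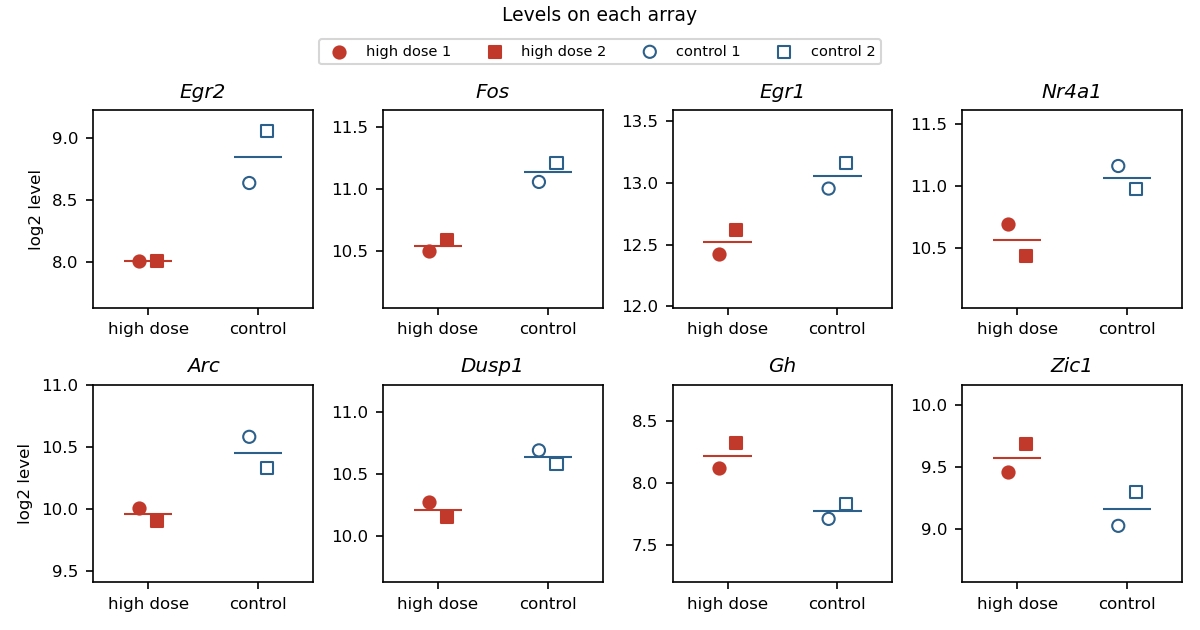
Log2 level of 8 genes on each array, high dose (filled red) left of control (open blue), with circles for arrays of the first date and squares for those of the later date and a bar at each group's mean. The 6 activity genes lie lower at the high dose, and Gh and Zic1 lie higher, with no overlap between the groups in any panel.

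Effector genes that neuronal activity induces, which encode synaptic and secreted proteins rather than factors, showed a smaller shift. Of 33 tested, 26 had lower means, 16 (48.5%, against 18.7% of all genes) had both high dose arrays below both controls and 0 had both above. The median was -0.12, or -0.07 without control 1. Arc, a protein of active synapses that governs AMPA receptor removal, read 10.01 and 9.90 at the high dose, against 10.58 and 10.33 in control (difference -0.50, SE 0.11, limma adjusted p = 0.275). Tac1, the precursor of substance P, read 10.62 and 10.49, against 10.81 and 11.05 in control, but differed by 0.04 on its other probe set. Penk, the enkephalin precursor, was low on 1 array only, with 11.34 and 10.87 at the high dose, against 11.31 and 11.68 in control. Both peptides are also striatum markers. Bdnf, the growth factor most often tied to antidepressants, overlapped between the groups at 10.40 and 10.32, against 10.38 and 10.16 in control, with a difference of 0.09.

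Homer1, a scaffold of the postsynaptic density with a short form induced by activity, depended on the probe set. The brightest of its 6 probe sets read 11.95 and 12.05 at the high dose, against 12.19 and 12.15 in control, a difference of -0.18. Another probe set read 11.14 and 11.15 at the high dose, against 11.94 and 12.11 in control, a difference of -0.88. That is larger than the difference of any gene by its brightest probe set. The remaining 4 probe sets of Homer1 ran from -0.18 to -0.01. Which transcript each probe set detects is not given in the sources used here.

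MAP kinase phosphatases and Sprouty proteins, which the MAP kinase pathway induces to restrain itself, lay lower as well. Of 16 tested, 14 had lower means and 9 (56.2%, against 18.7% of all genes) had separate groups below control. Their median was -0.16, or -0.05 without control 1. Dusp1, a phosphatase that inactivates MAP kinases in the nucleus, read 10.27 and 10.15 at the high dose, against 10.69 and 10.58 in control (difference -0.42, SE 0.11, limma adjusted p = 0.668). Spry4, an inhibitor of growth factor receptor signalling, read 7.97 and 7.84 at the high dose, against 8.41 and 8.00. Its 4 probe sets ran from -0.30 to 0.06. Dusp14 differed by -0.24, and the ERK-specific Dusp6 by -0.16. Of 18 tested kinases of the Ras, MAP kinase and calcium pathways, 14 had lower means, 4 (22.2%) lay below both controls and the median was -0.06 (-0.01 without control 1, -0.11 without control 2).

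In cyclic AMP signalling, 26 of 27 tested genes had lower means, with a median of -0.13. Both high dose arrays lay below both controls for 11 (40.7%, against 18.7% of all genes). The left pools hardly differed (median -0.0050, against 0.03 for all genes), while the right pools differed by -0.20 (against -0.09 for all genes). Without control 1 the median was -0.04 and without control 2 it was -0.20. Pde10a, a cyclic nucleotide phosphodiesterase that marks striatal neurons, read 11.06 and 10.57 at the high dose, against 11.22 and 11.08 in control. Its 5 probe sets ran from -0.33 to 0.05. Adcy5, an adenylyl cyclase also prominent in striatum, differed by -0.25, with 4 probe sets from -0.25 to 0.10, and the catalytic kinase subunit gene Prkacb by -0.20. Creb1 itself overlapped between the groups, with 10.50 and 10.33 at the high dose and 10.77 and 10.42 in control. Prkaca, the other catalytic subunit gene measured, had the only higher mean, by 0.07.

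The direct targets of the drug could be followed only in part, because monoamine neurons have their cell bodies outside the hippocampus. Slc6a4, the serotonin transporter, stayed below the filter at 7.36 on both high dose arrays, against 7.14 and 7.41 in control. Slc6a2, the noradrenaline transporter, read 7.85 and 7.68 at the high dose, against 7.77 and 7.81. Neither shows separate groups. Of 9 tested genes of monoamine transport, synthesis and breakdown, 6 had higher means and 3 lower, with a median of 0.01 (0.06 without control 1, -0.0056 without control 2, 0.04 without high dose 2). Only Ddc (11.1%, against 8.03% of all genes) lay above both controls, at 8.78 and 8.76, against 8.60 and 8.69 in control. Ddc is the decarboxylase that completes serotonin and dopamine synthesis, and its other probe set differed by -0.02. With centred arrays 4 of the 9 genes lay above both controls, where 19.2% of all genes did, and 7 had higher means. The breakdown enzymes Maoa and Maob differed by 0.04 and -0.07.

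Among receptors, 7 of 8 tested serotonin receptor genes had lower means, with a median of -0.08 (-0.02 without control 1, -0.04 without high dose 1), but 1 of the 8 (12.5%, against 18.7% of all genes) had separate groups. That gene was Htr5a, at 7.95 and 8.08 at the high dose, against 8.08 and 8.22 in control, so the groups nearly met. Its other probe set differed by 0.05. Htr1a, the receptor that slows serotonin neurons and also sits on hippocampal neurons, read 8.67 and 8.89 at the high dose, against 9.04 and 8.80, so the dates differ in direction. Htr4, which raises cyclic AMP, read 8.65 and 8.70, against 9.07 and 8.64 in control. Htr1b differed by -0.12, Htr2c by -0.03, Htr7 by -0.01 and Htr3a, an ion channel, by 0.02. Of 14 adrenergic and dopamine receptor genes, 6 had a probe set of their own here. Drd1 (-0.32) and Adra2c (-0.05) were tested, and the other 4, Adra1b, Drd2, Drd3 and Drd4, were too dim. S100a10, a partner protein of serotonin receptors, differed by 0.01. With the arrays centred, 4 of the 8 serotonin receptor genes had lower means and 4 higher.

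Growth factor genes had no common direction. Of 22 tested, 13 had lower and 9 higher means, 4 (18.2%, against 18.7% of all genes) lay below both controls and 0 above. The median was -0.04 (0.05 without control 1, -0.11 without control 2). Vegfa, the vascular growth factor, read 8.99 and 8.78 at the high dose, against 9.23 and 8.95 in control. Ntrk2, the receptor of BDNF, read 12.14 and 12.30, against 12.33 and 12.36. Igf2, made largely by choroid plexus and meninges, had the highest difference of the list at 0.27, with values of 10.30 and 10.51 at the high dose and 10.44 and 9.82 in control. Control 2 was the low value, and the other probe set of Igf2 differed by -0.03.

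Corticosteroid receptors and glucocorticoid targets, read for the stress axis, were near the background, with 5 of 25 tested (20.0%) below both controls, 3 (12.0%) above and a median of -0.06, which was -0.01 without control 1 or high dose 1 and -0.12 without control 2. Nr3c1, the glucocorticoid receptor, differed by -0.06 and Nr3c2, the mineralocorticoid receptor, by 0.12. Fkbp5, a chaperone that glucocorticoids induce strongly, read 10.20 and 10.28 at the high dose, against 10.33 and 10.26. Cdkn1a, a cell cycle inhibitor that stress hormones and activity also induce, was the member farthest below control. It read 8.42 and 8.34 at the high dose, against 8.84 and 8.70 in control (difference -0.40, SE 0.10, limma adjusted p = 0.805). Crhr1, a receptor of corticotropin releasing hormone, differed by -0.25.

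Clock genes mostly lay lower, with a few members higher. Of 21 tested, 10 (47.6%, against 18.7% of all genes) had both high dose arrays below both controls and 4 (19.0%, against 8.03%) had both above. With centred arrays 8 lay below and 5 above, where 11.7% and 19.2% of all genes did. The median was -0.11, or -0.06 without control 1. On the lower side were activators of the E-box loop and repressors alike. Nfil3, a repressor that competes at the sites of Dbp, read 8.38 and 8.06 at the high dose, against 8.76 and 8.63 in control (difference -0.48, SE 0.11, limma adjusted p = 0.353). Npas2, a partner of Arntl, read 8.85 and 8.71, against 9.20 and 9.01, but differed by -0.02 on its other probe set. Bhlhe40, an E-box repressor, differed by -0.32, Clock by -0.24, Arntl by -0.20 and Per1 by -0.19. On the higher side, Dbp, an activator driven by E-boxes, read 11.79 and 11.62 at the high dose, against 11.60 and 11.40 in control. Ciart, a repressor in the same loop whose promoter with 3 E-boxes is printed above, read 8.39 and 8.29, against 8.25 and 8.08. Nr1d2 and Nr1d1, nuclear receptors of the clock, were the other members above both controls, by 0.06 and 0.07 on average. The hour of tissue collection is not given in the labels.

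Chaperone genes lay lower both in the heat shock list and in that of the endoplasmic reticulum. Of 25 tested genes of the heat shock list, which also holds the mitochondrial Hspd1, 24 had lower means. In 13 (52.0%, against 18.7% of all genes) the groups were separate below control. The median was -0.11, or -0.21 without control 2. Dnajb1, a cofactor of Hsp70, read 11.10 and 11.22 at the high dose, against 11.48 and 11.56 in control (difference -0.36, SE 0.10, limma adjusted p = 0.933). Hsph1 read 12.49 on both high dose arrays, against 12.71 and 12.69 in control. The inducible Hsp70 genes Hspa1a and Hspa1b, near-identical copies whose probes may not separate them, differed by -0.22 and -0.30. Hspd1, the mitochondrial chaperonin, differed by -0.08, and Dnajb6, with 0.05, had the only higher mean.

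In the unfolded protein response, 24 of 27 tested genes had lower means and 15 (55.6%, against 18.7% of all genes) lay below both controls. The median was -0.11, with -0.13 for date 1 and -0.08 for date 2. Leaving out control 1 gave -0.07 and leaving out control 2 gave -0.17. Creld2, a target of that response, read 9.36 and 9.42 at the high dose, against 9.67 and 9.62 in control. Xbp1, the spliced transcription factor of the pathway, read 12.33 and 12.48, against 12.70 and 12.61, and its 4 probe sets ran from -0.30 to 0.04. Hspa5, the Hsp70 of the endoplasmic reticulum, was uneven over dates, at 12.65 and 12.94, against 12.96 and 13.07 in control. Syvn1, a ubiquitin ligase of this compartment, and Herpud1, its partner, both differed by -0.23. Chac1, a glutathione-degrading enzyme downstream of Atf4, was the only member above both controls, by 0.14 on average, and Atf4 differed by -0.03. The low dose arrays differed from each other here. As a median deviation from the mean of the high dose and control arrays, heat shock genes lay at 0.0098 on low dose 1 and 0.19 on low dose 2, against 0.12 and 0.04 in control. Unfolded protein genes lay at 0.06 and 0.22, against 0.11 and 0.0044 in control. The median difference of low dose from control was 0.04 for the heat shock list and 0.08 for the unfolded protein list. Both comparisons use the same controls.

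The genes with the widest gap between the groups, the lowest array of the upper group minus the highest of the lower group, were listed over all 11743 genes, 15 in each direction. On the lower side the gap ran from 0.63 for Egr2 to 0.28 for Fosl2, and the next gene stood at 0.27. Of these 15, 7 belong to the activity lists above, namely Egr2, Fos, Egr1, Arc, Dusp1, Nr4a1 and Fosl2. Mtcl1, which links microtubules, read 10.08 and 10.05 at the high dose, against 10.54 and 10.40 in control. Kmt2a, a histone methyltransferase, read 10.13 on both high dose arrays, against 10.61 and 10.42. On these probe sets Mtcl1 and Kmt2a also lay below the low dose arrays. On their other probe sets the groups overlapped, with differences of -0.09 for Mtcl1 and -0.19 for Kmt2a. Nts, the peptide neurotensin, read 9.39 and 9.33 at the high dose, against 9.69 on both controls. Hrh1, the histamine receptor that many antihistamines block, read 8.47 and 8.40, against 8.77 and 8.82, and differed by -0.05 on its other probe set. The others were the actin regulator Fnbp1l (-0.34), the Notch inhibitor Numb (-0.37, but 0.03 on its other probe set), Cdkn1a and the co-chaperone Dnajb5 (-0.34, but -0.06 and -0.05 on its other probe sets). All 15 also had both low dose arrays below both controls, which the 2 comparisons share. In 5 of them the high dose was below the low dose as well, without overlap.

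On the higher side gaps were narrower, from 0.29 for Gh to 0.14 for Hand1, with the next gene at 0.14. Gh, which encodes growth hormone, a pituitary product, read 8.12 and 8.32 at the high dose, against 7.71 and 7.83 in control (difference 0.45, SE 0.10, limma adjusted p = 0.353). All 4 of its probe sets had separate groups, with differences from 0.45 to 0.92. On the dimmer probe sets the controls read 6.66 to 7.13, below the control array medians of 7.79 and 7.80. The brightest exceeded the array median on both high dose arrays and, at 7.83 against 7.80, on control 2. Gh thus passed the filter through its high dose values, and the dimmer probe sets add no support. The low dose arrays read 7.76 and 7.78, within the control range. Prl, the other main pituitary hormone gene, lay below the filter at 7.22 and 7.38, against 7.12 and 7.11 in control. Pomc, at 8.34 and 8.36, against 8.47 and 8.28, and Cga, at 7.36 and 7.55, against 7.20 and 7.49, overlapped. Whether pituitary RNA plays a part in the Gh values was not tested.

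Zic1, a zinc finger factor of thalamus, septum and meninges, read 9.46 and 9.69 at the high dose, against 9.02 and 9.30 in control (difference 0.41, SE 0.11, limma adjusted p = 0.850). Tdo2, which breaks down tryptophan, the precursor of serotonin, read 8.07 and 8.17, against 7.93 and 7.72. Its 3 probe sets ran from 0.05 to 0.30. Opalin, a membrane protein of myelinating cells, read 10.05 and 10.07, against 9.86 and 9.88 in control, while the low dose arrays were higher still, at 10.13 and 10.27. The list also holds Tmem212 of ependyma, the collagen Col1a2, the growth factor relative Gdf11, the lipid droplet protein Cidea and the glutathione transferase Gstt2, with differences from 0.18 for Gstt2 to 0.29 for Tmem212. The remaining members were Cutc, Clic1, Crip1, Dhrs7, Hand1 and 1700023D09Rik, which differed by 0.15 to 0.26. On the control and low dose arrays 1700023D09Rik lay below the array median, and so did Gdf11 except on low dose 1. Both thus passed the filter through their high dose values. A further probe set overlapped between the groups for Col1a2 (0.02), Dhrs7 (-0.02) and Hand1 (0.03). With the date block 12 of the 15 lower and 2 of the 15 higher genes passed. They were selected for separate groups, so that count adds no support.

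**Figure D3:**
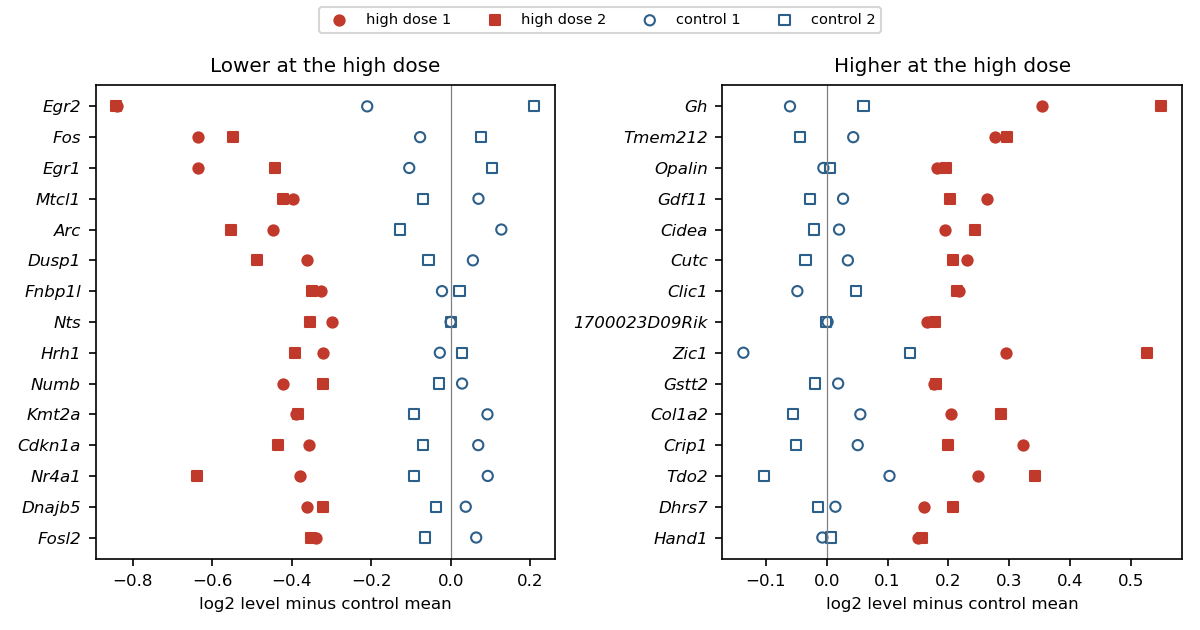
Log2 level on each array minus the control mean for the 15 genes with the widest gap in each direction, high dose in filled red and control in open blue, circles for the first date and squares for the later. Egr2 stands apart on the left with both high dose arrays at -0.84, and Gh is the farthest to the right in the other panel.

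RNA processing genes held some of the largest single differences without a common shift. Malat1, an abundant nuclear noncoding RNA, read 13.17 and 12.52 at the high dose, against 13.36 and 13.55 in control (difference -0.61, SE 0.14, limma adjusted p = 0.353), and high dose 2 was the lowest array of this probe set. Another read 11.73 and 11.67 at the high dose, against 12.25 and 12.41 in control, with both high dose arrays about equally low. The 7 probe sets of Malat1 ran from -0.63 to -0.08, and 5 of them had separate groups. Tra2a, a splicing activator, read 10.54 and 10.08 at the high dose, against 11.10 and 10.56 in control, lower by about as much on both dates but unevenly by side, with -0.02 on the left and -1.02 on the right. Its other 5 probe sets ran from -0.23 to -0.03. Cirbp, an RNA binding protein that rises in the cold, differed in the other direction, at 10.50 and 10.36, against 10.29 and 9.98 in control, and Srsf5 differed by 0.16. Of 35 tested splicing genes 8 (22.9%, against 18.7% of all genes) lay below both controls and 2 (5.7%, against 8.03%) above. Among 28 tested chromatin genes 25 had lower means, but 4 (14.3%) lay below both controls, and the median was -0.21 for date 1 and 0.0010 for date 2.

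Most synaptic gene lists stayed near the background, in which 18.7% of all genes lay below both controls, with a larger share among postsynaptic scaffold genes. The high dose lay below control without overlap for 4 of 19 tested AMPA, NMDA and kainate receptor genes (21.1%), 6 of 20 postsynaptic scaffold genes (30.0%), 2 of 10 GABA receptor genes (20.0%), 7 of 35 vesicle release genes (20.0%) and 12 of 53 ion channel genes (22.6%). Each of these lists had a negative median on the first date, between -0.19 and -0.12, and one between -0.01 and 0.04 on the later. With centred arrays 6 of the 20 scaffold genes lay below both controls and 2 above, where 11.7% and 19.2% of all genes did. Gabrd, the subunit of extrasynaptic GABA receptors, read 9.13 and 8.85 at the high dose, against 9.39 and 9.34 in control. Its other probe set differed by -0.03. Grik3, a kainate receptor subunit, read 9.57 and 8.95, against 9.87 and 9.39, but differed by 0.05 on its other probe set. Grik4, the kainate subunit typical of the CA3 field, lay above both controls at 8.95 and 8.87, against 8.81 and 8.72. All 6 tested metabotropic glutamate receptors had lower means, from -0.27 for Grm4 to -0.09 for Grm2.

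Genes of the respiratory chain and of cytosolic ribosomes lay slightly above the median of all genes, and those of glycolysis slightly below it. Of 70 tested genes of the respiratory chain and ATP synthase, 50 had higher means, 10 (14.3%, against 8.03% of all genes) lay above both controls and 0 below, with a median of 0.03, which became -0.0063 without high dose 2, 0.07 without high dose 1 and 0.02 without control 2. The range was narrow, from -0.16 for Sdhc to 0.16 for Uqcr10, a subunit of the third complex. Cytosolic ribosomal proteins had a median of 0.02 with 31 of 43 means higher, or -0.02 without high dose 2, 0.06 without high dose 1 and 0.04 without control 2. Glycolysis genes had a median of -0.04, with 16 of 19 means lower, 5 (26.3%, against 18.7% of all genes) below both controls and 0 above. That median was 0.02 without control 1 and -0.10 without control 2. With centred arrays 1 of the 19 glycolysis genes lay below both controls and 2 above, where 11.7% and 19.2% of all genes did. Then 9 of their means were lower and 10 higher. Interferon response and antigen presentation genes had a median of 0.06, with 17 of 20 means higher and 6 (30.0%, against 8.03% of all genes) above both controls. Ifi27, an interferon-induced gene, read 10.48 and 10.72 at the high dose, against 10.46 and 10.34 in control. That list lay at -0.02 for date 1 and 0.12 for date 2. Its median was 0.02 without control 2 and 0.13 without control 1.

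Markers of striatum and of neocortex, tissues near the hippocampus, lay lower, while 7 of 14 tested thalamus markers had lower means and the other 7 higher ones. All 17 tested striatum markers had lower means and 13 (76.5%, against 18.7% of all genes) had separate groups below control. Their median was -0.29, with -0.14 for date 1 and -0.45 for date 2. Gpr6, a receptor of striatal output neurons, read 8.01 and 7.56 at the high dose, against 8.16 and 8.27 in control. Drd1, the dopamine receptor of the direct pathway, read 9.38 and 9.32, against 9.43 and 9.91, and Ppp1r1b, its downstream phosphatase inhibitor, 9.08 and 8.74, against 9.32 and 9.12. Summed on the linear scale, the striatum list amounted to 21301 and 17648 at the high dose, against 23175 and 25533 in control. Without high dose 2 the median was -0.14. Hippocampal neurons express many of these genes too, at lower levels.

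All 16 tested neocortex markers had lower means and 12 (75.0%, against 18.7% of all genes) lay below both controls. Their median was -0.18, split by date into -0.19 and then -0.18. Tbr1, a factor of deep layer neurons, read 9.41 and 8.95 at the high dose, against 9.84 and 9.28 in control. Lamp5, a marker of upper layers and of some interneurons, read 10.60 and 10.55, against 10.88 and 10.84. The summed linear level was 24568 and 25315 at the high dose, against 28888 and 27966 in control. Nr4a2 is a member of this list and of the immediate early list, and Tac1, Penk, Pde10a, Adcy5 and Drd1 also sit in lists above. The part of neighbouring tissue in the lower activity genes was not tested.

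The wall of the ventricle went the other way. Of 11 tested ependyma and cilia genes, 10 had higher means and 8 (72.7%, against 8.03% of all genes) had separate groups above control, with a median of 0.16, 0.08 for date 1 and 0.25 for date 2. Ak7, an adenylate kinase of cilia, read 8.66 and 8.76 at the high dose, against 8.56 and 8.42 in control. Ccdc153, another ciliary gene, read 8.64 and 8.63, against 8.51 and 8.35. Defining members such as Foxj1, Hydin and Spag17 lay below the filter, and the summed level was 5616 and 5483 at the high dose, against 5457 and 4850 in control. Without control 2 the median was 0.08 and without control 1 it was 0.25.

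Meningeal and fibroblast genes had a median of 0.17, with 17 of 19 means higher and 7 (36.8%, against 8.03% of all genes) above both controls. Fmod, a collagen-binding proteoglycan, read 9.32 and 9.15, against 9.02 and 8.73 in control, but the low dose arrays alone spanned 8.65 to 9.37. Col3a1, a fibrillar collagen, read 8.62 and 8.46 at the high dose, against 8.33 and 8.12. The summed level was 25975 and 23954 at the high dose, against 25666 and 19406 in control, where control 2 is low. Without control 2 the median was 0.0083 and without control 1 it was 0.30.

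Choroid plexus genes had higher means for 20 of 21 tested, yet 2 (9.5%, against 8.03% of all genes) lay above both controls. Their median was -0.13 for date 1 and 0.49 for date 2. Kcne2, a potassium channel subunit of this epithelium, read 8.53 and 9.05 at the high dose, against 8.72 and 8.24 in control. Otx2, its master regulator, read 8.14 and 8.58, against 8.22 and 7.81. High dose 2 was high and control 2 low, whereas the first date showed the reverse order. Without high dose 2 the list's median of 0.17 became 0.02, and without control 2 it became 0.05. Without high dose 1 it was 0.38 and without control 1 it was 0.31. The low dose arrays also lay above the mean of the 4 arrays, by medians of 0.07 and 0.24.

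**Figure D4:**
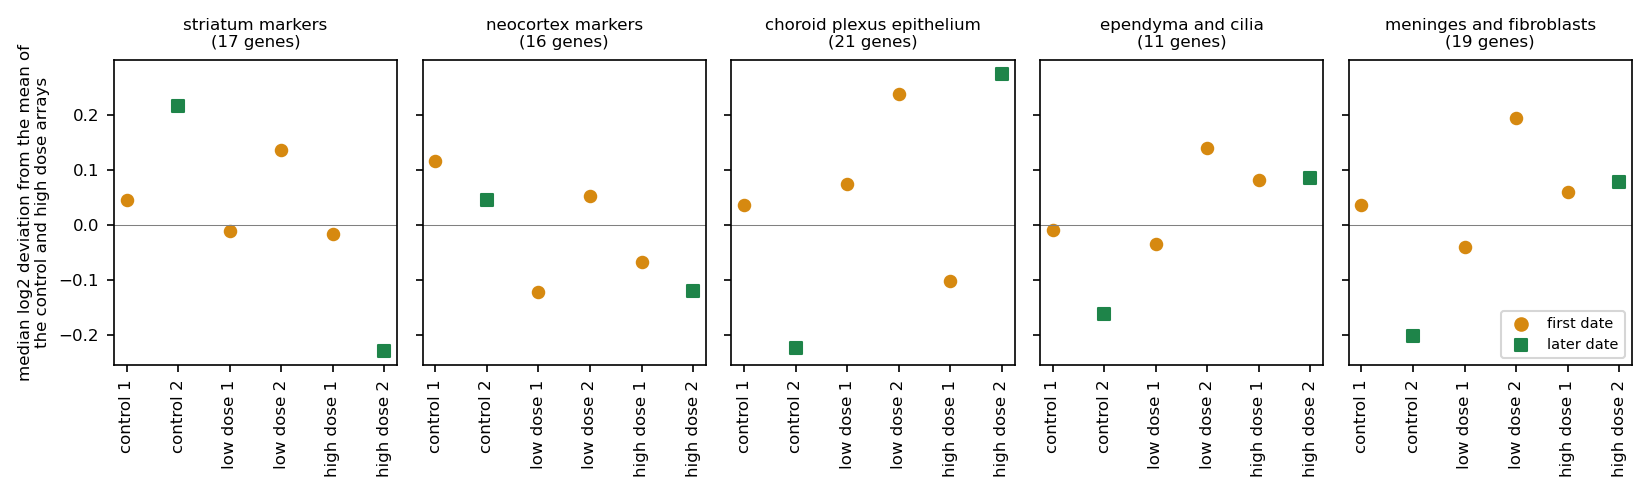
Median deviation of each array from a gene's mean over the control and high dose arrays, in log2 units, for 5 tissue marker lists, with arrays in order of dose, orange circles for the first date and green squares for the later. Striatum markers are lowest on high dose 2 (-0.23) and highest on control 2 (0.22), and choroid plexus markers show the opposite, 0.27 and -0.22.

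Cell type lists within the hippocampus had small medians over all 4 arrays. They were -0.02 for 12 CA1 genes, 0.02 for 20 CA2 and CA3 genes, -0.01 for 21 genes of mature dentate granule cells, 0.01 for 27 astrocyte genes, -0.02 for 21 microglial genes and 0.03 for 22 genes of endothelium and pericytes. The 24 oligodendrocyte and myelin genes had a median of -0.03. On the left they lay at 0.14 and on the right at -0.14, against 0.03 and -0.09 for all genes. These medians moved with single arrays, as did that of all genes, which was 0.02 without control 1 and -0.09 without control 2. Dentate granule cell genes lay at 0.08 without control 1 and -0.19 without control 2, CA1 genes at 0.04 and -0.10, CA2 and CA3 genes at 0.10 and -0.05, astrocyte genes at 0.05 and -0.03, microglial genes at 0.01 and -0.06, endothelial genes at 0.04 and -0.02, and myelin genes at 0.06 and -0.07. Without high dose 2 myelin genes lay at 0.09. Of 22 genes of adult neurogenesis, 7 (31.8%, against 18.7% of all genes) lay below both controls and 2 (9.1%, against 8.03%) above. With centred arrays 4 lay below and 4 above, and 9 means were lower and 13 higher. Among the 7 were the cell cycle gene Ccnd2 at 10.57 and 10.79, against 10.98 and 10.91, and the factor Sox11 at 10.33 and 10.09, against 10.50 and 10.35 in control. Dcx, the standard marker of young neurons, read 8.94 and 8.96 at the high dose, against 8.92 and 8.95. Among 25 tested genes of GABA synthesis and interneurons, 6 lay below both controls and 3 above, where 18.7% and 8.03% of all genes did. Their median was -0.01, or 0.04 without control 1 and -0.14 without control 2. With centred arrays 6 lay below and 3 above as well. Gad2 (0.02), Sst (0.01) and Pvalb (0.05) differed little. Tac1 (-0.38), Lamp5 (-0.28), Crh (-0.22) and Reln (-0.21) were among those below both controls, but Reln differed by -0.0041 on its other probe set.

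**Figure D5:**
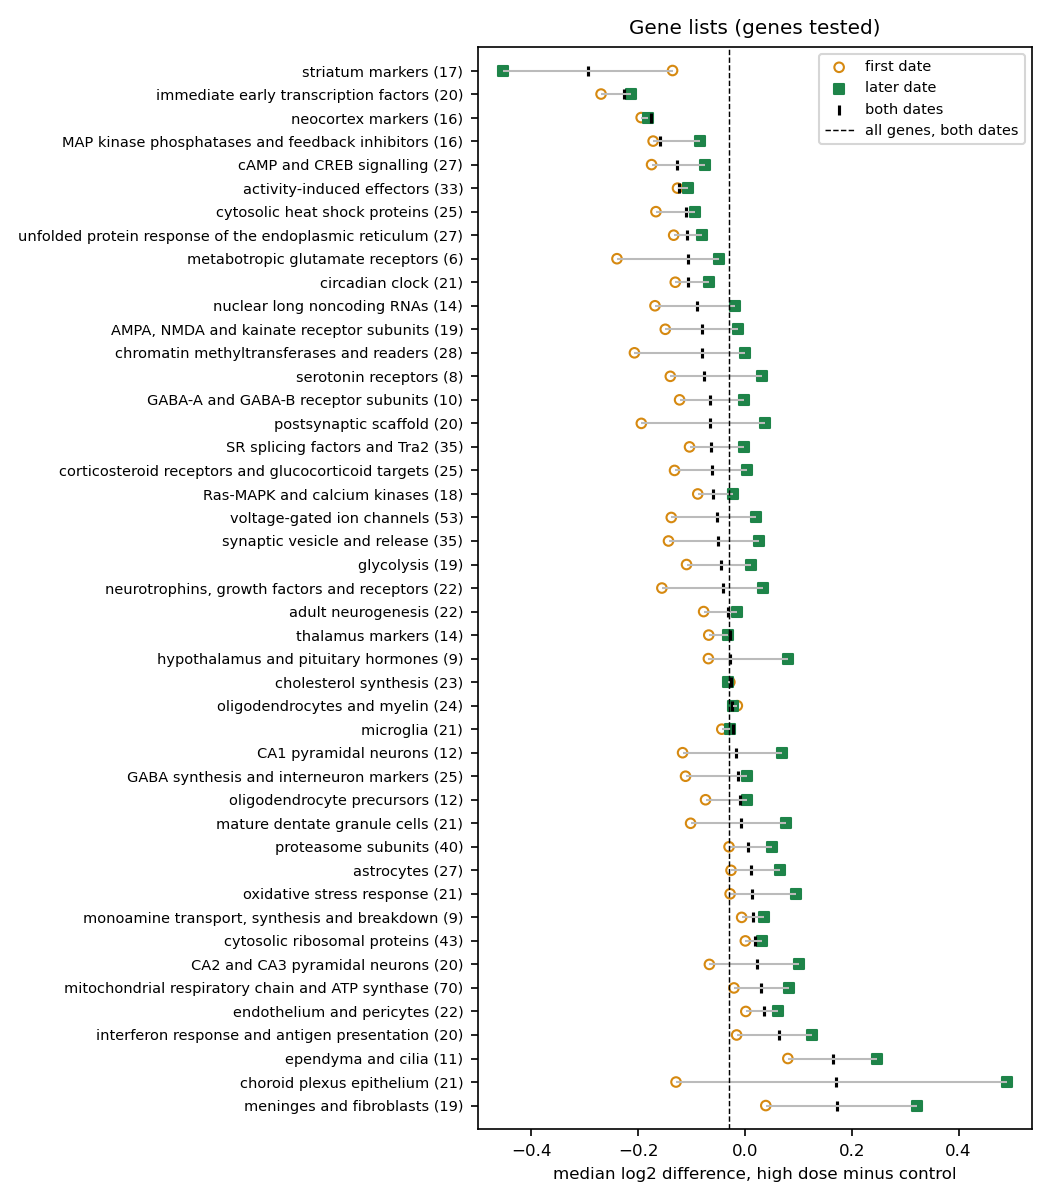
Median log2 difference of high dose minus control for each list of at least 5 tested genes (number in brackets), over both dates (black tick), on the first date (open orange circle) and on the later date (green square), with the median of all genes, -0.03, as a dashed line. Over both dates together, striatum, immediate early and neocortex lists have the lowest medians and meninges, choroid plexus and ependyma the highest, and choroid plexus has the widest distance between dates.

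Set against the low dose arrays, the high dose gave 0 genes past the threshold (0%) in the same limma fit, with 729 at an unadjusted p under 0.05, and 3 genes passed with the date block. Both low dose arrays are of the first date, a right pool (RIN 9.1) and a left pool (RIN 8.9), so this comparison is not balanced over dates. Without control 1 or control 2 the count was 152, and 117 without high dose 1, for high dose against low dose. Activity genes differed little between the doses, with 0.09 for Egr2, 0.02 for Fos, 0.15 for Arc and 0.0013 for Dusp1 on the log2 scale, high dose minus low dose. A p above the threshold does not show that the doses act alike. For Gh the difference from the low dose was 0.45, as large as that from control. Mtcl1 and Kmt2a differed from the low dose by -0.26 and -0.22. The exact permutation test over 2 against 2 arrays cannot go below a two-sided p of 0.333, so no single-gene value was tested that way.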

How the data were processed

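The authors deposited log2 expression values of 45101 probe sets, made with RMA in R 3.0.1 per the submitters' processing notes with settings that no source used here gives. Labelling started from 100 ng of RNA. Names come from the platform annotation, updated by Entrez identifier, and 34945 probe sets had 1 symbol. Of 18193 genes, the 11743 above the array median on at least 2 arrays entered limma 3.58.1 in R 4.3.3 (lmFit, eBayes, two-sided, Benjamini-Hochberg, threshold 0.05), with 1 coefficient per dose group on all 6 arrays. The fit was tested on simulated data. Replicate numbers equal hybridization dates in the labels of control and high dose, and replicate 2 minus replicate 1 had a correlation of 0.54 over genes between these groups, so the replicate block was fitted as an alternative. Named genes are those past the threshold, the 15 widest gaps each way, 4 members per list by moderated statistic or a list's members by role, and a panel of 22 antidepressant-related genes. Members and the 47 lists were chosen with earlier results of these data known. Promoters come from RefSeq tables.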

Additional observations from a re-analysis of the deposited data

Results flagged for a closer look

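Gene lists were listed here where the difference of high dose from control had opposite signs on both dates or on both sides and a median over 0.1 in size each time. Choroid plexus epithelium genes had a median difference of 0.49 on the later date and -0.13 on the first. Oligodendrocyte and myelin genes had one of -0.14 on the right and 0.14 on the left, where all genes had -0.09 and 0.03. The difference itself was not tested in either case, since each date and each side holds 1 array per group. The change between dates cannot be told apart from one between sides, and the change between sides not from one between dates.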

How the results depend on the processing

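The count of genes past the limma threshold for high dose against control, 1 as reported, was 44 with the replicate block by hybridization date, 3 with side as a term, 10 with block and side, 39 with RIN as a covariate, 40 with only the 4 arrays and the replicate block, 5 with the stricter filter and 14 with trend and robust settings. It was 25 with the replicate block and quantile normalization together, a setting chosen after seeing the data. It was 0 with only the 4 arrays, without the filter, with averaged probe sets, with centred arrays and with quantile normalization, where 214, 497, 330, 580 and 682 genes had an unadjusted limma p under 0.05. Leaving out an array gave 0 to 178 genes, with 178 without control 2, 25 without control 1, 14 without high dose 1, 7 without high dose 2, and 0 without low dose 1 or low dose 2 (214 at an unadjusted limma p under 0.05). For high dose against low dose the count of 0 became 3 with the replicate block and ran from 0 to 152 with an array left out, with 152 without control 1 or control 2, 117 without high dose 1 and 1 without high dose 2. In most fits with more calls all genes shared 1 spread. Egr2 kept its direction in all of these fits and lost its call in those with 0 genes, and the 30 genes with the widest gaps kept their sign in all 550 alternative values. Of the list medians under alternatives, 311 moved by less than the spread between arrays and 73 by more. The sign of Htr7, Adra2c and Fkbp5, all close to 0, turned to 0.04 with centred arrays, and to 0.0027 and 0.05 with averaged probe sets. Sign changes were not confined to these genes. Acta2, of the endothelium and pericyte list, went from 0.14 to -0.03 without control 2.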

Other observations

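Thalamus markers, a tissue that borders the hippocampus, had a median difference of -0.03, equal to that of all genes, but its members spread widely. The median was -0.06 without control 1, -0.0078 without control 2, -0.0091 without high dose 1 and -0.10 without high dose 2. Slc17a6, the glutamate transporter of thalamic neurons, differed by -0.27, with separate groups. Pdp1, a phosphatase that activates pyruvate dehydrogenase, read 11.21 and 10.93, against 11.47 and 11.34, while Zic1 lay above both controls. Avp, the vasopressin gene, read 8.01 and 8.21 at the high dose, against 7.80 and 8.00 in control, and 9.32 and 8.40 on the low dose arrays. Oxt, the oxytocin gene, overlapped at 8.93 and 8.78, against 8.99 and 8.90 in control.

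Genes of the oxidative stress response had a median of 0.01 (0.09 without control 1, -0.0089 without control 2, 0.04 without high dose 1). Mgst1, a membrane-bound glutathione transferase, read 9.95 and 10.04 at the high dose, against 9.85 and 9.76 in control, and 5 of 21 tested members (23.8%, against 8.03% of all genes) lay above both controls. Among microglial genes, C1qb of the complement system differed by -0.28, while C1qa differed by 0.02 and C1qc by -0.09.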
